A study of Mus musculus with 12 samples.

Results

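The collagen genes were followed through 12 thymic T-cell lymphomas of mice. Members were the genes of the count table whose symbol has the form of a collagen chain, as Col1a1 has, with at least 10 counts in at least 2 tumours. All 44 collagen genes matched by symbol met this rule, out of 37991 genes in the table, and 42 of them passed the filter on low counts of the test between groups. They were grouped as 11 fibrillar, 8 basement-membrane and 25 other collagens.

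The tumours came from C57BL/6 mice that carried the genotype p53neo/R172H;R26CreER/GNZ, in which weekly tamoxifen injections switched on Cre recombinase and thereby wild-type p53. All 12 tumours were treated in this way, and all mice also carried the R172H mutant allele of Trp53. Per the labels, 8 tumours were responders and 4 were non-responders, as judged by shrinkage or growth in magnetic resonance imaging, and each was frozen after the last scan. The labels give no untreated tumour, age, batch or pairing, and 1 RNA-seq library stands for each tumour. The libraries held 20796860 to 30265753 counts.

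Collagens are secreted or membrane-bound proteins whose chains wind into a triple helix. Fibroblasts and related mesenchymal cells make the fibrillar types I, III and V, which carry tensile load in the connective tissue of capsule, septa and vessel walls. Type IV forms the sheet beneath endothelium and epithelium, with types XV and XVIII at its border. Type VI forms beaded filaments around cells, and types XII and XIV sit on the surface of fibrils. In lymphoma tissue such transcripts are usually read as a sign of stroma, but single collagen genes can also be active in the tumour cells. In bulk tissue, fewer cells of a type and less RNA per cell cannot be told apart.

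Upstream sequences are shown for 3 members: Col3a1 as the most abundant, Col27a1 as the most variable of the abundant ones, and Col4a6 because it shares its start region with Col4a5, whose levels did not overlap between groups. RefSeq promoters (GRCm38.p6) matched 35 of the 44 genes, and Col1a1, Col2a1, Col4a3, Col5a2, Col9a3, Col12a1, Col14a1, Col22a1 and Col26a1 had no entry. Each sequence holds the 250 bases before the RefSeq start site, written 5′ to 3′ on the strand of the gene, with capitals where the motif TATAAA, the motif CCAAT or the motif GGGCGG occurs on either strand. Col3a1 is at chr1:45311288-45311537 on the plus strand, Col27a1 at chr4:63215162-63215411 on the plus strand, and Col4a6 at chrX:141474077-141474326 on the minus strand.
Col3a1: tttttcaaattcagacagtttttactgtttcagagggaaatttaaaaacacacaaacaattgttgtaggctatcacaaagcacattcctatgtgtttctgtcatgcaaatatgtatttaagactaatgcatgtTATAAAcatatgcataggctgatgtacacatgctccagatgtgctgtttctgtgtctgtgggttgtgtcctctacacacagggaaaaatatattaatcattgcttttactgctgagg
Col27a1: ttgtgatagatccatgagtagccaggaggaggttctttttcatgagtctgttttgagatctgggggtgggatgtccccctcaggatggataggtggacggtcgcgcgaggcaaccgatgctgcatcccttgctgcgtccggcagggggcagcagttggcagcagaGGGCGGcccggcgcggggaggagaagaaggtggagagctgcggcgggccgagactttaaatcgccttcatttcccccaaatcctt
Col4a6: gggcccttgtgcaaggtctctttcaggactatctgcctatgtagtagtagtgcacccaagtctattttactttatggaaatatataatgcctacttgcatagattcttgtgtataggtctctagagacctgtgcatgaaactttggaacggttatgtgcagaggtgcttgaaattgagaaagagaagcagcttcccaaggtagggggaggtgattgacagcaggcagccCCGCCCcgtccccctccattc
The window of Col3a1 was 35.2% G or C and that of Col27a1 59.6%. TATAAA was found in the window of Col3a1, 117 bases before the start, and in neither of the others. GGGCGG was found in Col27a1 and Col4a6. Of 32851 mouse promoter windows of the same length, 12.37% held TATAAA, 33.85% CCAAT and 32.74% GGGCGG on either strand. Among the 38 windows of the 35 collagen genes, 5, 13 and 22 did.

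The genes of the main type IV chains start head to head. On chromosome 8 the start of Col4a2 on the plus strand and that of Col4a1 on the minus strand lie so close that the transcripts overlap by 22 bases, at chr8:11312805-11312826 (GRCm38). The plus strand of this stretch is shown because both genes begin in it, with the capitals as above.
Col4a2 to Col4a1: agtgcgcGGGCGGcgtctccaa
Col4a3 and Col4a4 on chromosome 1 start 72 bases apart, and Col4a5 and Col4a6 on chromosome X start 1309 bases apart.

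Collagen transcripts made up a small part of every library. Counts over the 44 genes took 0.150% ± 0.0596 of all counts in the 8 responders (SD) and 0.156% ± 0.0470 in the 4 non-responders (SD). The highest share, in responder 1, was 0.241% (Wilson 95% interval 0.239% to 0.243%), and the lowest, in responder 8, was 0.0580% (0.0570% to 0.0589%). These intervals cover counting error only. Both extremes were responders, so the non-responders, at 0.101% to 0.205%, lay inside the responders' range.

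Levels are given as CPM, the counts per 1000000 of a library total scaled by TMM. Over the 8 responders the fibrillar class summed to a mean of 797 ± 460 CPM (SD), and over the 4 non-responders to 1182 ± 427 CPM (SD). Without Col27a1, a choice made after its values were seen, these sums were 719 ± 375 and 851 ± 455 CPM. The basement-membrane class was at 325 ± 128 and 240 ± 54.0 CPM, and the other collagens were at 348 ± 135 and 199 ± 48.3 CPM. In all 3 classes the ranges of the groups overlapped.

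**Figure D1:**
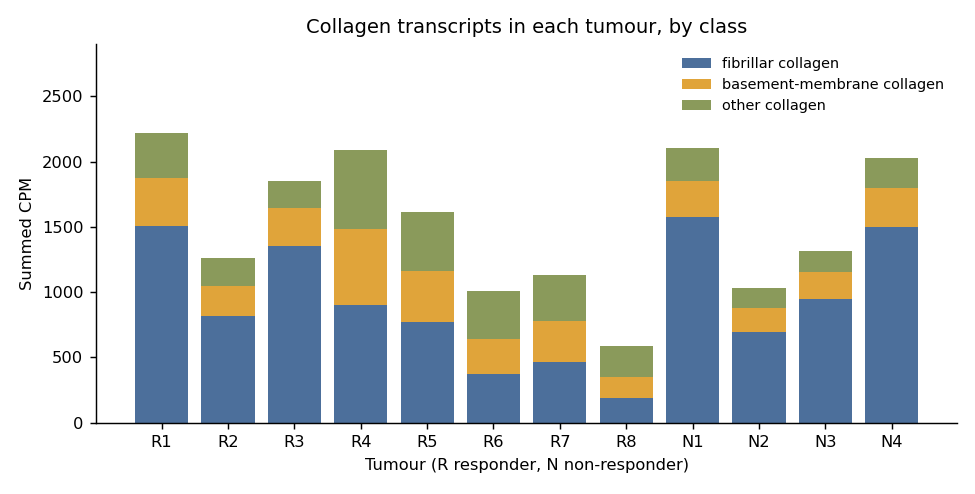
Summed level of the collagen genes in each tumour in CPM, stacked by class, with 8 responders (R) at left and 4 non-responders (N) at right. Responder 8 has the lowest total at 590 CPM and responder 1 the highest at 2220 CPM. The summed CPM of the other collagens, not their share of the total, is largest in responder 4 at 604 CPM.

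Per kilobase of the longest coding transcript, which allows genes to be compared, Col3a1 had the highest mean level over the 12 tumours at 58.1 ± 34.6 CPM per kilobase (SD). Col1a2 followed at 37.9 ± 20.8, Col4a1 at 23.9 ± 9.19, Col27a1 at 21.3 ± 26.2 and Col1a1 at 19.98 ± 12.4 CPM per kilobase. Col6a1 (16 ± 7.77), Col4a2 (13.3 ± 5.99) and Col6a2 (10.1 ± 4.62) came next. Neighbours in this order differed by less than the spread between tumours, but that spread is no test of an order within tumours. The order depends on the length used and is not firm. With all annotated exons as length, the median ratio of Col1a1 to Col1a2 was 1.16, against 0.551 with the coding transcript. At the other end Col13a1 and Col9a1, with 77 and 52 counts over all tumours, were too low to be tested.

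Type I and type III collagen, the main fibrils of connective tissue, did not separate the groups. Col3a1, the single chain of type III, was at 56.7 CPM in the lowest responder, 285 CPM at the median and 612 CPM in the highest. In non-responders 1 to 4 it was at 476, 252, 163 and 591 CPM. Responders 3 and 1 and non-responder 4 were high and responder 8 was low, so the groups overlapped throughout. On the log2 scale the fold change, non-responder minus responder in all that follows, was 0.31 (SE 0.55, edgeR adjusted p = 0.766).

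Col1a1, the more numerous chain of type I collagen, was at 26.1 CPM in the lowest responder, 99.1 at the median and 227 CPM in the highest. In non-responders 1 to 4 its level was 131, 87.4, 43.4 and 268 CPM. Again the range of each group covered most of the other. Col1a1 differed by 0.25 (log2; SE 0.54, edgeR adjusted p = 0.811). Col1a2, the partner chain, was at 42.1, 174 and 313 CPM (lowest, median and highest responder) and at 395, 156, 72.3 and 308 CPM in the non-responders. Col1a2 differed by 0.31 (log2; SE 0.51, edgeR adjusted p = 0.739). These small differences rested on single tumours. Without non-responder 4 the log2 fold changes of Col1a1 and Col3a1 were -0.35 and -0.01, and without non-responder 1 that of Col1a2 was -0.07.

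With the exact two-sided permutation test, which has 495 possible splits here, the difference in mean log2 CPM was 0.22 for Col1a1 (p = 0.756), 0.49 for Col3a1 (p = 0.479) and -0.37 for Col4a1 (p = 0.267). After adjustment over the 3 genes the p-values were 0.756, 0.718 and 0.718. The sign for Col1a1 turned without responder 8 (-0.04) or non-responder 4 (-0.22).

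Type V collagen, which nucleates type I fibrils, also overlapped widely between groups. Col5a2 was at 21.5, 54.5 and 76.1 CPM (lowest, median and highest responder) and at 72.8, 45.2, 29.0 and 78.8 CPM in non-responders 1 to 4. Responder 8 was lowest and non-responder 4 highest. Col5a2 differed by 0.12 (log2; SE 0.34, edgeR adjusted p = 0.863), and its sign turned without responder 8 or without non-responder 1 or 4. Col5a1 differed by -0.31 (SE 0.40) and Col5a3 by -0.01 (SE 0.38).

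**Figure D2:**
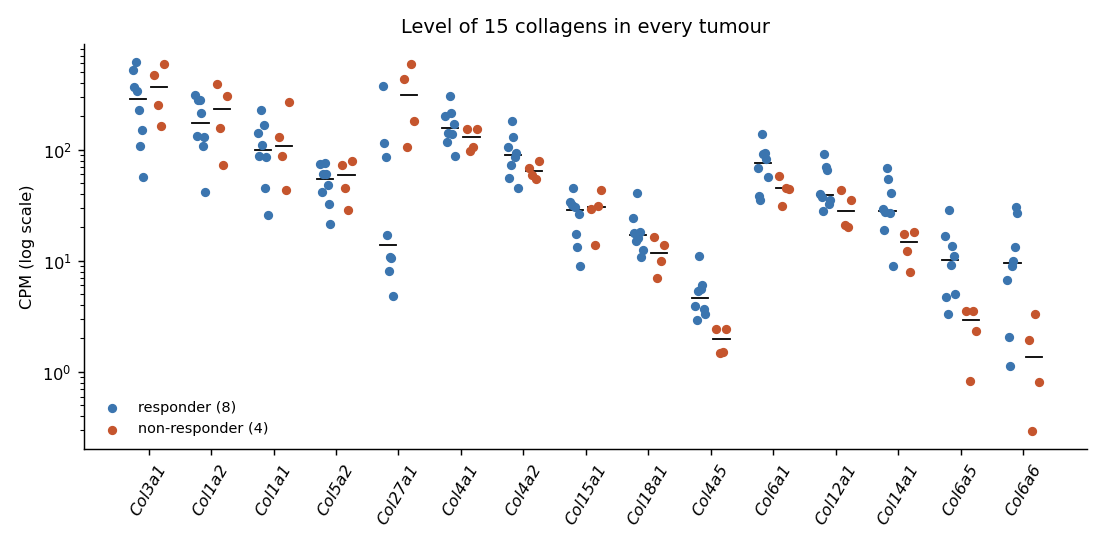
Level of 15 collagen genes in CPM on a log scale, 1 point per tumour, responders in blue and non-responders in red, with a line at each group's median. Col1a1, Col1a2 and Col3a1 overlap between groups, Col27a1 spans 4.80 to 598 CPM, and the non-responders of Col4a5 all lie below the responders.

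Col27a1 was the exception among the abundant fibrillar collagens. It encodes a fibrillar chain known from cartilage, and lies on chromosome 4 from 63214004 to 63334991 (ENSMUSG00000045672, GRCm38). Its level was 375, 114 and 85.9 CPM in responders 1, 2 and 3, and 17.2, 8.06, 10.9, 10.6 and 4.80 CPM in responders 4 to 8. In non-responders 1 to 4 it was 435, 106, 598 and 182 CPM. The highest tumour had 125 times the level of the lowest, against 10.3 times for Col1a1 and 10.8 times for Col3a1.

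The 7 tumours with the highest Col27a1 were thus all 4 non-responders and responders 1 to 3, and no tumour had a level between 17.2 and 85.9 CPM. Between the groups Col27a1 differed by 2.08 (log2; SE 1.03, edgeR adjusted p = 0.235, unadjusted p = 0.0641). limma-voom with quality weights called it higher in non-responders (log2 fold change 3.72, adjusted p = 0.0393) and DESeq2 did not (adjusted p = 0.137). With 1 tumour left out, the edgeR log2 fold change ran from 1.62 to 3.20. It was 3.20 without responder 1.

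Col27a1 parted from the order of Col1a1 in some tumours, though responder 8 was lowest for both. The correlation of this pair was not computed. Non-responder 3, with the highest Col27a1, had 43.4 CPM of Col1a1, below all but responder 8. Responder 5, with 168 CPM of Col1a1, had 8.06 CPM of Col27a1. Rag1, the recombinase gene of immature thymocytes, chosen here after its values were seen, was at 894, 1203 and 1261 CPM in responders 1 to 3 and at 1497, 168, 1755 and 1264 CPM in the non-responders. In responders 4 to 8 Rag1 was at 0.455, 2.90, 0.510, 0.409 and 0.713 CPM, so the same 7 tumours were high. Whether the lymphoma cells or other cells held the Col27a1 transcripts was not tested.

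Cartilage markers were given beside Col27a1 because type XXVII is a cartilage collagen. Of the 10 cartilage markers, Acan, the gene of the proteoglycan aggrecan, was at 42.6, 92.1 and 193 CPM in responders 1 to 3, at 0.277 to 5.48 CPM in responders 4 to 8, and at 33.8, 80.2, 95.4 and 142 CPM in non-responders 1 to 4. Acan was thus high in the 7 tumours that were high for Col27a1. The other 9 did not share this, and Matn3 and Snorc, which mark cartilage cells, had 17 and 12 counts over all 12 tumours. Sox9, the main cartilage transcription factor gene, was at 0.759 to 3.77 CPM in responders and at 0.413, 0, 1.38 and 0.590 CPM in the non-responders. The sum of the 10 markers was 9.0 to 198 CPM over the responders, and over the non-responders it was 39.0 to 144 CPM. In the 7 tumours that were high for Col27a1 most of this sum was Acan. Of the 8 cartilage markers tested between groups, 7 had a log2 fold change below 0 (87.5%, where 51.5% of all genes had). At an unadjusted p under 0.05, 2 were lower (25%, where 16.1% of all genes were) and 0 higher.

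Col2a1, the chain of cartilage type II collagen, was low everywhere, with 416 counts over the 12 tumours. It was at 0.527, 0.842 and 1.96 CPM (lowest, median and highest responder) and at 3.21, 3.09, 2.53 and 0.907 CPM in non-responders 1 to 4. Non-responders 1 to 3 were above all responders, and non-responder 4 was among them. Col2a1 differed by 1.28 (log2; SE 0.44, edgeR adjusted p = 0.128), and DESeq2 called it higher in non-responders (adjusted p = 0.0446).

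The chains of type IV collagen split into an abundant pair and 4 scarce chains. Col4a1 was at 88.6, 158 and 305 CPM (lowest, median and highest responder) and at 155, 98.1, 106 and 155 CPM in non-responders 1 to 4. Col4a2, its partner in the common type IV network, was at 45.2, 89.8 and 182 CPM in responders and at 68.4, 59.8, 54.6 and 78.9 CPM in non-responders. Responder 4 was highest and responder 8 lowest for both, and the non-responders lay within the responders' range. Their log2 fold changes were -0.43 (SE 0.30, edgeR adjusted p = 0.389) and -0.56 (SE 0.32, edgeR adjusted p = 0.306).

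Within a tumour the 2 chains kept a narrow ratio. Per kilobase of coding transcript, Col4a1 stood to Col4a2 at 1.58 to 2.20 over the 12 tumours, with a median of 1.88. The ratio of Col1a1 to Col1a2 was wider, at 0.299 to 0.785 with a median of 0.551. That level depends on the gene model, since with all annotated exons as length the median was 1.16, while for type IV it was 1.71. In the protein type I holds Col1a1 and Col1a2 chains in unequal number, and so does type IV.

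The scarce type IV chains were lower on average in non-responders. Col4a5, a chain of basement membranes in kidney, skin and smooth muscle, was at 2.92, 4.66 and 11 CPM (lowest, median and highest responder) and at 2.43, 1.47, 1.52 and 2.45 CPM in non-responders 1 to 4. All 4 non-responders lay below all 8 responders. Col4a5 differed by -1.41 (log2; SE 0.40, edgeR adjusted p = 0.117, unadjusted p = 0.00392). Both DESeq2 (adjusted p = 0.00599) and limma-voom (adjusted p = 0.0417) called it lower.

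Col4a6, which starts 1309 bases from Col4a5 on the other strand and whose upstream window is printed above, was at 1.03, 1.89 and 7.37 CPM in responders and at 1.19, 0.637, 0.598 and 0.862 CPM in non-responders. Responder 4 was far above the rest, and 1 non-responder reached into the responders' range. Col4a6 differed by -1.60 (log2; SE 0.54, edgeR adjusted p = 0.125, DESeq2 adjusted p = 0.0276). Col4a4 had a log2 fold change of -1.29 (SE 0.55) and Col4a3, its partner in the kidney network, one of -0.14 (SE 0.43).

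The border collagens did not share a direction. Col15a1, the chain of type XV, was at 9.04, 28.6 and 45.2 CPM (lowest, median and highest responder) and at 29.2, 13.8, 31.4 and 43.8 CPM in non-responders 1 to 4. Col18a1, from which the fragment endostatin is cut, was at 10.9, 17 and 40.8 CPM and at 16.4, 7.05, 10.02 and 13.7 CPM. The log2 fold change was 0.19 (SE 0.40) for Col15a1, -0.06 without non-responder 4, and -0.73 (SE 0.36) for Col18a1 (edgeR adjusted p = 0.806 and 0.237).

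Type VI collagen has a common trimer of Col6a1, Col6a2 and Col6a3 and 3 further chains that can take the place of Col6a3. Col6a1 was at 34.9, 75.6 and 140 CPM (lowest, median and highest responder) and at 57.6, 30.9, 44.9 and 44.8 CPM in non-responders 1 to 4. Col6a2 was at 31.4, 54.5 and 94.8 CPM and at 36.7, 17.2, 35.1 and 36.0 CPM. For both, responder 4 was highest and non-responder 2 lowest, and responders 2, 3 and 8 lay among the non-responders. The log2 fold changes were -0.77 (SE 0.35) and -0.82 (SE 0.32), with edgeR adjusted p-values of 0.199 and 0.155. Col6a3 was at 19.7, 43.9 and 79.5 CPM and at 41.8, 28.9, 20.2 and 53.4 CPM, a log2 fold change of -0.47 (SE 0.37).

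The alternative type VI chains, which lie next to each other on chromosome 9, varied far more. Col6a6 was at 6.70, 2.05, 1.14, 9.06, 9.90, 13.4, 30.6 and 27.1 CPM in responders 1 to 8 and at 1.93, 0.294, 3.31 and 0.817 CPM in non-responders 1 to 4. Col6a5 was at 16.6, 4.68, 3.33, 28.7, 9.12, 13.7, 11.1 and 4.99 CPM in responders and at 3.53, 0.833, 3.54 and 2.31 CPM in non-responders. Responder 3 lay among the non-responders for both genes, and responder 2 for Col6a6. The log2 fold changes were -2.97 (SE 0.93) for Col6a6 and -2.17 (SE 0.63) for Col6a5, with edgeR adjusted p-values of 0.118 and 0.117. DESeq2 (0.00433 and 0.00437) and limma-voom (0.0451 and 0.0416) called both as lower.

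Col6a4 was at 1.81, 10.3 and 26.2 CPM (lowest, median and highest responder) and at 1.93, 4.21, 3.49 and 2.09 CPM in non-responders 1 to 4. Responders 4 and 5 were highest, and responders 2 and 3 were within or below the non-responders. Responders 1 to 3 were at 5.76, 2.10 and 1.81 CPM, and responders 4 to 8 were at 8.64 to 26.2 CPM. The tumours that were high for Rag1, responders 1 to 3 and all non-responders, were thus all below responders 4 to 8, as they were for Col6a6. Col6a4 differed by -2.09 (log2; SE 0.73, edgeR adjusted p = 0.129, DESeq2 adjusted p = 0.018).

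Among collagens on the surface of fibrils, Col14a1 was at 8.96, 28.3 and 68.3 CPM (lowest, median and highest responder) and at 17.6, 12.2, 8.00 and 18.3 CPM in non-responders 1 to 4. Responder 8 alone among responders was inside the non-responders' range. Col14a1 differed by -1.29 (log2; SE 0.46, edgeR adjusted p = 0.134, DESeq2 adjusted p = 0.0437). Col12a1 was at 27.8, 38.8 and 90.8 CPM and at 43.5, 21.2, 20.1 and 35.2 CPM, with more overlap. Its log2 fold change was -0.74 (SE 0.35, edgeR adjusted p = 0.224).

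Col28a1, known from the sheath around peripheral nerve, was high in 4 tumours. Its level was 12.8, 4.54, 1.94 and 2.64 CPM in responders 4 to 7, and between 0.184 and 0.534 CPM in the other 8 tumours. Responders 1, 2, 3 and 8 were therefore as low as or close to the non-responders. Col28a1 differed by -3.22 (log2; SE 1.07, edgeR adjusted p = 0.122, DESeq2 adjusted p = 0.00709).

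Col8a1, a network-forming collagen of vessel walls, was among the 12 tested collagens with a log2 fold change above 0. It was at 2.02, 3.96 and 6.24 CPM (lowest, median and highest responder) and at 11.3, 5.14, 2.57 and 15.2 CPM in non-responders 1 to 4. Non-responders 1 and 4 were above all responders, and the others were among them. The log2 fold change was 1.05 (SE 0.45, edgeR adjusted p = 0.18). Its partner Col8a2 differed by 0.72 (SE 0.44), and the membrane collagen Col25a1, with 142 counts in all, by 0.81 (SE 0.68). Col25a1 was highest in non-responder 2, and without that tumour its log2 fold change was -0.30.

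**Figure D3:**
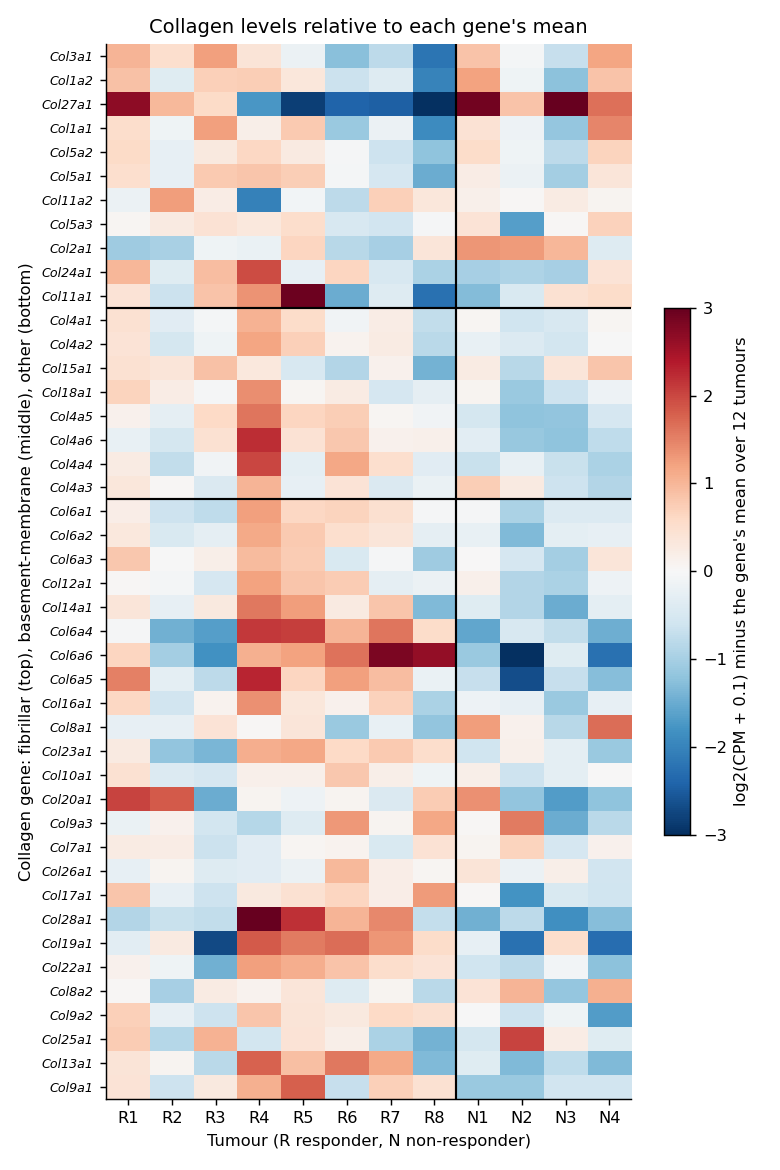
Level of each of the 44 collagens in each tumour as log2(CPM + 0.1) minus the mean of the gene over the 12 tumours, red above and blue below, with the 3 classes from top to bottom and the groups divided by a line. Responder 4 is the highest tumour for 22 of the 44 genes, and Col27a1 is red in responders 1 to 3 and all non-responders.

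Over the 42 tested collagens, 0 passed edgeR's threshold of an adjusted p under 0.05, as was so for 0% of all 18612 genes tested. At an unadjusted p under 0.05 were 15 of 42 collagens, where 23.8% of all genes were. Of these, 13 of 42 collagens were lower in non-responders (31.0%), where 16.1% of all genes were. Another 2 were higher (4.76%), Col2a1 and Col8a1, where 7.73% of all genes were. The median log2 fold change was -0.64 over the 42 collagens and -0.02 over all genes tested. Among the classes, 0 of 11 fibrillar, 3 of 8 basement-membrane and 10 of 23 other collagens were lower at this level, and their medians were 0.12, -0.64 and -0.82. The difference between classes was not tested.

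Col4a5 was the only collagen whose CPM did not overlap between groups, where 1.18% of all genes were lower without overlap and 0.951% higher. DESeq2 called 7 of 42 collagens lower, where 10.4% of all genes were, and 1 of 42 higher, where 2.8% of all genes were. limma-voom called 3 of 42 lower, where 4.71% of all genes were, and 1 of 42 higher, where 4.55% of all genes were. Col4a5, Col6a5 and Col6a6 were called by both tools.

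**Figure D4:**
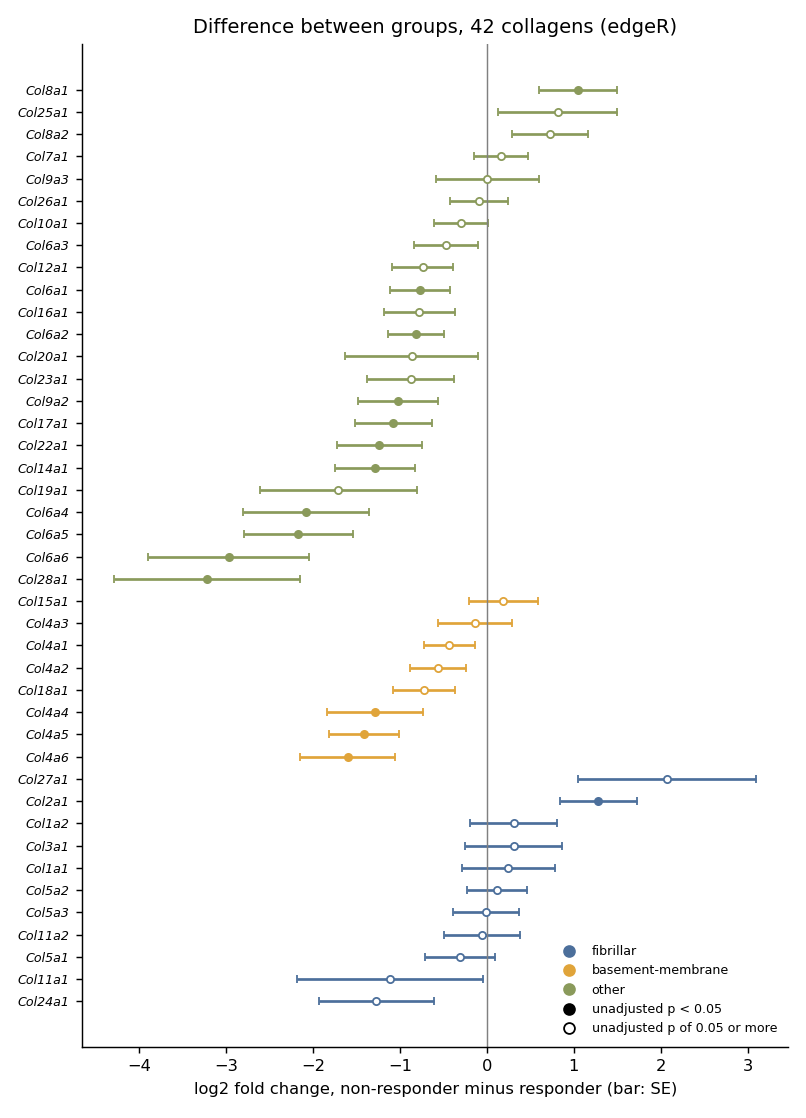
Log2 fold change, non-responder minus responder, with its standard error for the 42 tested collagens, coloured by class and filled where the unadjusted edgeR p is under 0.05. Fibrillar collagens lie on both sides of 0, with Col27a1 at 2.08, while 18 of 23 other collagens lie below 0.

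Single tumours moved these counts. Responder 4 was the highest of the 12 for 22 of the 44 collagens, and responder 8 was the lowest for 14. With 1 tumour left out, 9 to 16 collagens in place of 13 were lower at an unadjusted p under 0.05. The count was 9 without non-responder 2 and 10 without responder 4, responder 6 or non-responder 4. The share of all genes at an unadjusted p under 0.05 in either direction, 23.8% with all tumours, moved as well. It was 19.2% without non-responder 2, 19.4% without responder 4, 19.5% without responder 6 and 16.8% without non-responder 4. In either direction 15 collagens were at this p with all tumours, and 11, 12, 11 and 11 in these settings. The highest share in either direction was 29.9%, without responder 3, where 18 collagens were at this p and 16 were lower. The share of all genes that were lower, 16.1% with all tumours, was not computed for left-out tumours. Without responder 4 the median log2 fold change of the collagens was -0.42. Responder 4 also had the highest sums of fibroblast (1620 CPM), endothelial (902), mural-cell (1045), adipocyte (1590) and muscle markers (534 CPM), and the lowest sum of T-cell markers (905 CPM). In the other responders T-cell markers summed to 1343 CPM or more.

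The markers of cells that could hold collagen transcripts were lower on average in non-responders. The sum of the 14 fibroblast markers was 300 to 1620 CPM over the responders, and 350 to 594 CPM over the non-responders. Of them, 7 of 14 were lower and 1 higher at an unadjusted p under 0.05, where 16.1% of all genes were lower and 7.73% higher. The same background applies to the marker lists that follow. Dcn, the gene of the fibril-binding proteoglycan decorin, was at 69.2, 236 and 673 CPM (lowest, median and highest responder) and at 58.5, 102, 97.6 and 43 CPM in non-responders 1 to 4. Endothelial markers summed to 198 to 902 and 153 to 216 CPM, with 11 of 14 lower. Mural-cell markers, of the cells that wrap vessels, summed to 267 to 1045 and 295 to 376 CPM, with 4 of 10 lower and 1 higher. In these 3 lists no marker was at 0 in any tumour. Their part in the collagen differences was not tested.

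The sum of adipocyte markers was 3.73 to 1590 CPM over the responders, and over the non-responders 7.11 to 38.8 CPM (7 of 7 tested lower), and muscle markers summed to 14.6 to 534 and 5.96 to 21.3 CPM (9 of 10 lower). Thymic epithelial markers summed to 102 to 287 and 98.6 to 245 CPM (5 of 10 lower, 1 higher). Macrophage markers summed to 460 to 1990 and 511 to 1463 CPM (4 of 10 lower). Of the bone markers, Bglap, Sp7 and Dmp1 did not reach 10 counts in any tumour. The T-cell markers, which define the tumour, were present in all 12 and their sum was 905 to 3688 CPM over the responders, and 2596 to 3532 CPM over the non-responders. Of these 11 markers, 10 had a log2 fold change above 0 and 1 below (9.09%, where 51.5% of all genes were below). Their median was 0.38, and 0 of them were at an unadjusted p under 0.05.

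Gene pairs showed which collagens went together over the tumours. For 6 pairs, Pearson's r and Spearman's rho of log2 CPM were taken over the 12 tumours, with permutation p-values adjusted over the 6. Col4a1 and Col4a2, the head-to-head pair, had r = 0.967 and rho = 0.930 (permutation p = 1e-05, the smallest the resampling can give, and 4e-05; adjusted 6e-05 and 0.00024). Without the 2 tumours farthest from the median of Col4a1, responders 4 and 8, r was 0.923. Col1a1 and Col1a2, which are on chromosomes 11 and 6, had r = 0.898 and rho = 0.832 (permutation p = 7e-05 and 0.00136; adjusted 0.00018 and 0.00204), and r = 0.837 without responder 8 and non-responder 4. Col1a1 with Col3a1 gave r = 0.891 and rho = 0.860 (permutation p = 0.00013 and 0.00075; adjusted 0.000195 and 0.00152), and r = 0.794 without the same 2 tumours. All 3 relations were also present among the 8 responders alone, with r of 0.985, 0.915 and 0.890.

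Type I and type IV were less closely tied. Col1a1 with Col4a1 had r = 0.547 and rho = 0.608 (permutation p = 0.0672 and 0.041; adjusted 0.0807 and 0.0492), r = 0.450 without responder 8 and non-responder 4, and r = 0.601 in the responders. Without responder 4 alone, r was 0.661 and passed the threshold (adjusted p = 0.0332).

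Col4a1 was correlated with the endothelial marker Cdh5, whereas Col1a1 with the fibroblast marker Pdgfra did not pass the test. No other marker of these lists was correlated, and the difference between these correlations was not tested. Col4a1 with Cdh5, the adhesion gene of endothelial cells, had r = 0.913 and rho = 0.853 (permutation p = 9e-05 and 0.00076; adjusted 0.00018 and 0.00152), r = 0.794 without responders 4 and 8, and r = 0.938 in the responders. Col1a1 with Pdgfra, a receptor gene of fibroblasts, had r = 0.149 and rho = 0.182 (permutation p = 0.642 and 0.571, the same after adjustment), r = 0.258 without responder 8 and non-responder 4, and r = 0.328 in the responders. Pdgfra was at 15.8, 28.6 and 75.8 CPM (lowest, median and highest responder) and at 12.6, 21.9, 11.1 and 13.2 CPM in non-responders 1 to 4. Non-responder 4 thus had the highest Col1a1 of the 12 tumours, with Pdgfra below all responders.

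**Figure D5:**
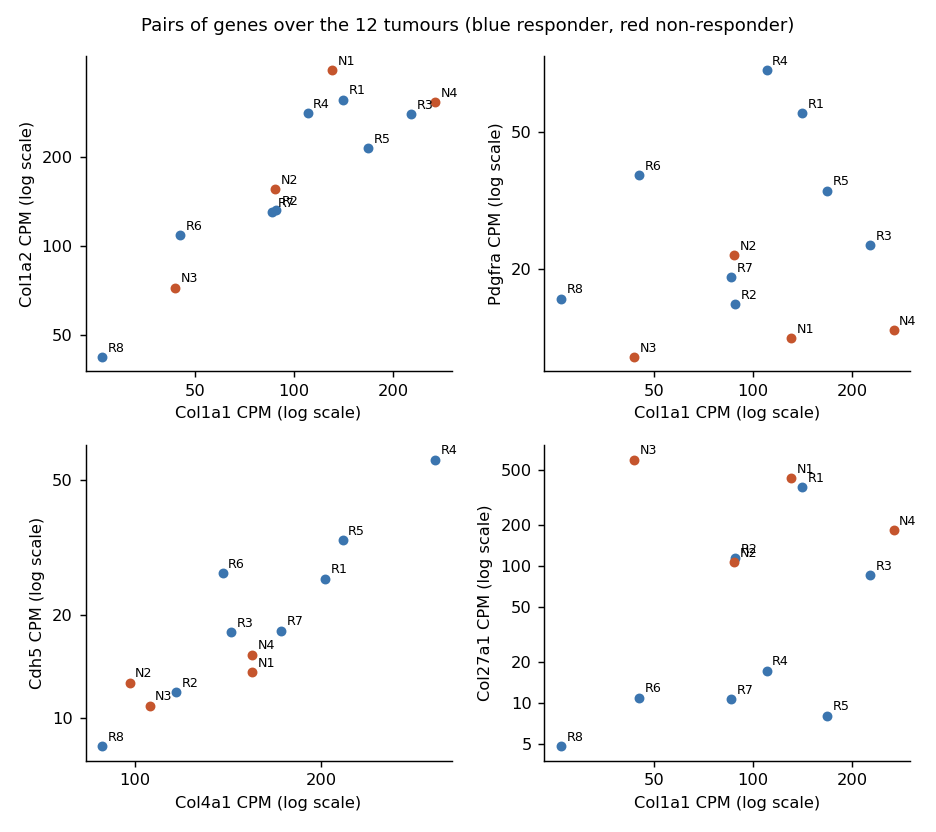
Levels of 4 pairs of genes in the 12 tumours in CPM on log axes, with each tumour named (R responder, N non-responder). Col1a1 and Col1a2 rise together (r = 0.898), as do Col4a1 and Cdh5 (r = 0.913), while Pdgfra does not follow Col1a1 (r = 0.149). For Col27a1 with Col1a1 no correlation was computed.

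Taken as a ratio within each tumour, the log2 ratio of Col1a1 to Pdgfra was 1.63 ± 1.09 over the 8 responders (SD), and 2.91 ± 1.15 over the 4 non-responders (SD). The difference was 1.29 (exact permutation test, two-sided, p = 0.0929), and the groups overlapped. That of Col4a1 to Cdh5 was 2.93 ± 0.395 and 3.26 ± 0.233, a difference of 0.33 (exact permutation p = 0.141). Adjusted over these 2 ratios, which were added after the values had been seen, both p-values were 0.141.

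The machinery that makes and handles collagen was described from lists beside the family. Enzymes and chaperones that modify the chains in the endoplasmic reticulum summed to 867 ± 74.4 CPM over the responders and 836 ± 138 CPM over the non-responders (SD), and 2 of 20 tested were lower at an unadjusted p under 0.05, Fkbp14 and Colgalt2. This was 10% of the list, where 16.1% of all genes were lower. P4hb, the shared subunit of prolyl hydroxylase and the most abundant, was at 351, 422 and 591 CPM (lowest, median and highest responder) and at 304, 341, 463 and 401 CPM in non-responders 1 to 4. The groups overlapped, with a log2 fold change of -0.20 (SE 0.17). Many cells outside the stroma use P4hb as well.

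Among the 16 genes of procollagen processing and cross-linking, 5 were lower and 1 higher at an unadjusted p under 0.05 (31.2% and 6.25%, where 16.1% and 7.73% of all genes were). The higher gene was Adamts14, which encodes a protease that cuts the N-terminal propeptide from fibrillar procollagens. Adamts14 was at 1.55, 5.15 and 19.3 CPM (lowest, median and highest responder) and at 42.2, 42.6, 25.2 and 42.8 CPM in non-responders 1 to 4. All non-responders were above all responders (2.35 on the log2 scale, SE 0.61, edgeR adjusted p = 0.117, DESeq2 adjusted p = 0.00547, limma-voom adjusted p = 0.0271). Fmod, the gene of the fibril-binding protein fibromodulin, was at 2.07, 3.41 and 19.4 CPM and at 1.33, 1.71, 1.38 and 1.04 CPM, also without overlap and in the other direction (-2.05, SE 0.64, edgeR adjusted p = 0.118). Fn1, fibronectin, was at 198 ± 99.5 and 96.4 ± 61.7 CPM (SD, n = 8 and 4).

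Of 12 genes of collagen breakdown, 2 were lower and 1 higher at an unadjusted p under 0.05. These shares, 16.7% and 8.33%, were near the 16.1% and 7.73% of all genes. Mmp14, which encodes a membrane-bound collagenase, was at 18.4, 41.1 and 67.6 CPM (lowest, median and highest responder) and at 161, 147, 56.9 and 129 CPM in non-responders 1 to 4. Non-responder 3 was among the responders and the others were above them (1.46 on the log2 scale, SE 0.33, edgeR adjusted p = 0.117, DESeq2 adjusted p = 0.00202, limma-voom adjusted p = 0.039). Timp3, an inhibitor of such proteases that is held in the matrix, was at 9.49, 36.3 and 120 CPM and at 9.44, 9.99, 12.4 and 10.3 CPM (-2.08, SE 0.58, edgeR adjusted p = 0.117).

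Of 8 tested collagen receptors, 4 were lower and none higher at an unadjusted p under 0.05 (50% lower, where 16.1% of all genes were). Itga1, the integrin subunit that binds type IV collagen, was at 10.7, 37.5 and 81.7 CPM (lowest, median and highest responder) and at 11.5, 11.7, 8.05 and 10.1 CPM in non-responders 1 to 4 (-1.83 on the log2 scale, SE 0.53, edgeR adjusted p = 0.117). Itga2, which binds type I, was at 1.36, 7.64 and 48.9 CPM and at 1.28, 2.55, 1.56 and 1.23 CPM (-3.33, SE 0.98). T cells and other blood cells also carry these receptors. The shared partner Itgb1 was at 208 ± 93.1 and 256 ± 53.1 CPM (0.30, SE 0.35).

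Of 15 laminin, nidogen and proteoglycan genes of the basement membrane 4 were lower at an unadjusted p under 0.05 (26.7%, where 16.1% of all genes were). Their median log2 fold change was -0.67, beside -0.02 over all genes tested. Lamb1, a laminin chain, was at 21.8, 38.2 and 100 CPM (lowest, median and highest responder) and at 15.7, 13.7, 18.4 and 19.6 CPM in non-responders 1 to 4, without overlap (-1.36, SE 0.39, edgeR adjusted p = 0.117). Hspg2, the gene of the proteoglycan perlecan, was at 41.6, 128 and 190 CPM and at 67.2, 63.1, 265 and 162 CPM, a log2 fold change of 0.27 (SE 0.46).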

How the data were processed

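RNA-seq libraries of 12 tumours were measured, 8 responder and 4 non-responder. The deposited values are raw counts per Ensembl gene, made by the authors with HTSeq, per the submitters' processing notes, which name DESeq and NCBIM37. Per the labels, the extract protocol gives mm10 instead, so the build is not settled; neither aligner nor strand setting is given in the sources used here. Libraries were TruSeq mRNA, 75-base paired-end, per the labels' protocols. Symbols came from GENCODE M21 by Ensembl identifier (32919 of 37991 matched), as did coordinates, lengths and overlaps on GRCm38. Exon overlap with genes on the opposite strand was at most 6.07% of a member's exons (Col9a3 with Tcfl5). Lengths are those of the longest coding transcript.

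Counts were filtered with filterByExpr, scaled by TMM (the trimmed mean of M values) and tested with edgeR 4.0.16 (R 4.3.3), quasi-likelihood F test, robust, group as sole term, two-sided, with Benjamini-Hochberg adjustment over 18612 genes and a threshold of 0.05. Standard errors were derived from the F statistic. Log2 CPM used a prior count of 2. Correlations used 100000 permutations. The alternatives tried were scaling by RLE or upper quartile, omitting the filter or requiring 1 CPM in 4 tumours, dropping robust dispersion, limma-voom (limma 3.58.1), DESeq2 1.42.0, thinning to the smallest library, a prior count of 0.5, and leaving out each tumour. The labels call the tumours independent samples but do not otherwise say that they came from separate animals. The p-values treat each tumour as independent and set the difference between groups against the variation among these samples.

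Members and lists were chosen with earlier results of these data known. Named collagens are Col1a1, Col1a2, Col3a1, Col4a1 and Col4a2, the 5 with the highest mean CPM in each class, and the 5 with the lowest p in each direction. From other lists the 3 highest in CPM and the 2 lowest in p could be named. Further genes are named for counts or as chosen after their values were seen.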

Additional observations from a re-analysis of the deposited data

Results flagged for a closer look

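In groups of 4 or 8 tumours, 6 values stood apart from the rest of their group on the log2 scale, out of 88 groups examined, where chance flags about 1 in 20. In non-responder 4, Col24a1, a minor fibrillar collagen, was at 0.771 CPM against 0.245 in the next. In non-responder 2, Col6a2 was at 17.2 CPM against 35.1. In non-responder 3, Col16a1, a fibril-associated collagen, was at 2.94 CPM against 5.44. In non-responder 1, Col20a1 was at 6.74 CPM against 1.08. In responder 6, Col26a1 was at 5.20 CPM against 2.98. In responder 3, Col19a1 was at 0.0421 CPM, which is below the 0.640 of the next responder. Col19a1 and Col24a1 had only 430 and 230 counts over all tumours, so their flagged values rest on few counts.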

How the results depend on the processing

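No paired analysis was possible because the labels link no responder to a non-responder. The count of 15 collagens with an unadjusted p under 0.05 ran from 14 to 18 under the other tools and settings. Dropping single tumours gave counts of 11 to 18. Shares of all genes at that p, 23.8% in the main test, moved too. limma-voom gave 34.2% beside 18 collagens and DESeq2 27.5% beside 17, but upper-quartile scaling gave 23.6% beside 17. Without responder 3 the share was 29.9% (18 collagens), and without non-responder 4 it was 16.8% (11). Without responder 8 it was 21.5% (17 collagens). The median log2 fold change of the collagens spanned -0.71 to -0.50 over tools and settings, and -0.79 to -0.42 over the dropped tumours. limma-voom called 4 collagens and 1723 genes at an adjusted p under 0.05, and DESeq2 called 8 collagens and 2462 genes, against 0 and 0 in edgeR. The cause was not tested. With 1 tumour left out edgeR called 0 to 5 genes, with 5 without responder 3, 3 without non-responder 1 and 1 without non-responder 3, and 0 collagens. DESeq2 and limma-voom each gave all 23 named collagens the direction of edgeR, as did the other settings that kept all tumours. Among the other tested collagens the sign turned for Col5a3 in DESeq2 (-0.0096 in edgeR, 0.014). In limma-voom it turned for Col11a1 (-1.12 in edgeR, 0.019), Col11a2 (-0.055, 0.28) and Col9a3 (0.0054, -0.49). With 1 tumour left out 8 of 276 log2 fold changes of the named collagens turned, in 6 genes. Their ranges were -0.35 to 0.56 for Col1a1 (non-responder 4), -0.069 to 0.62 for Col1a2 (non-responder 1), -0.012 to 0.57 for Col3a1 (non-responder 4), -0.086 to 0.35 for Col5a2 (responder 8, non-responders 1 and 4), -0.063 to 0.44 for Col15a1 (non-responder 4) and -0.30 to 1.11 for Col25a1 (non-responder 2). The difference in mean log2 CPM of Col1a1 ran from -0.22 to 0.65, and the correlation of Col1a1 with Col4a1 from 0.384 to 0.661. The other 5 correlations kept their side of the threshold in all 14 settings. With 10 counts required in 4 tumours, 42 collagens remained. Depth limits the scarce collagens most, such as Col25a1 with 142 counts in all.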

Other observations

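Several low-level collagens of specialised tissues were measurable. Col17a1, which anchors epithelial cells to their basement membrane, had a mean of 2.94 ± 1.22 CPM over the 8 responders (SD) and 1.39 ± 0.665 CPM over the 4 non-responders (SD), and differed by -1.08 (log2; SE 0.44, edgeR adjusted p = 0.166). Col22a1, of the junction between muscle and tendon, was at 1.59 ± 0.774 and 0.674 ± 0.253 CPM (-1.24, SE 0.49). The membrane collagen Col23a1 was at 5.26 ± 2.68 and 2.86 ± 1.07 CPM (-0.88, SE 0.50). Col10a1, of hypertrophic cartilage, was at 2.57 to 6.56 CPM in responders and 2.40 to 4.22 CPM in non-responders, and Col7a1, of the anchoring fibrils below skin epithelium, was at 1.64 to 3.61 and 1.84 to 4.26 CPM.

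Col11a2, a fibrillar chain of cartilage, was at 3.48 to 34.6 CPM in responders, lowest in responder 4, and at 16.1, 14.8, 17 and 15.3 CPM in non-responders 1 to 4. Col20a1 was at 10.8 and 9.45 CPM in responders 1 and 2, at 6.74 CPM in non-responder 1 and at 0.736 to 4.44 CPM elsewhere. These genes outside the rule for named collagens were chosen after their values were seen.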
